A study of Drosophila melanogaster with 9 samples.

Results

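The mitochondrial chaperones described here are the genes Trap1, Hsc70-5, Hsp60A, Hsp60B, Hsp60C and Hsp60D, chosen by name with earlier results of these data known. All 6 were found among the 11983 genes that a probe set of the array names alone, each by a single probe set. The study set 2 mutants against a wild-type strain in the indirect flight muscle of Drosophila melanogaster males, with 3 biological replicates per genotype and 1 array for each. The first mutant, Act88FKM88, is described by the study as a null of the flight muscle actin gene Act88F. The second, Mhc7, is described as a myosin null; this allele of the myosin heavy chain gene leaves the flight muscle without that protein. The wild type was Canton-S. The sources used here do not say whether the mutants share its genetic background. All flies were 1 to 2 days old and were reared at 25 °C, and the muscles were dissected from thoraces kept overnight in cold ethanol.

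Mitochondria import nearly all of their proteins unfolded and refold them in the matrix. Hsc70-5, the mitochondrial Hsp70, pulls the incoming chains in and binds them, and the Hsp60 chaperonin, a barrel capped by Hsp10, then encloses and folds them. Trap1 is the Hsp90 of mitochondria and is best known for adjusting respiration and resistance to stress. Flies carry several Hsp60 genes. Hsp60A is the general and essential form, whereas Hsp60B is known for its need in sperm maturation, Hsp60C for roles in male germ cells and in tracheal development, and Hsp60D for a role in cell death. Flight muscle is among the tissues richest in mitochondria.

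Expression is given as the log2 level after RMA, a method that corrects background, normalizes arrays and summarizes the probes of a probe set, so a difference of 1 is 2-fold. Calls come from a limma fit to all 9 arrays and 18769 probe sets, and to pass, a probe set had to differ at least 2-fold with an adjusted p (Benjamini-Hochberg) under 0.1. Act88F, the gene mutated in Act88FKM88, stood at 11.57, 11.79 and 11.03 in Act88FKM88, against 14.10, 14.32 and 14.36 in Canton-S, and at 14.10, 14.25 and 14.14 in Mhc7. No probe set naming Mhc alone was used here, so the Mhc7 label has no such check. The 7 measured flight muscle markers, among them flightin (fln, 13.65 to 14.34), ranged from 6.20 to 14.36. The 25 testis markers lay between 2.31 and 3.50 and the 9 accessory gland markers between 2.30 and 3.58, around the array medians of 3.05 to 3.12. The 95th percentile of level was 7.57 to 7.96 in Act88FKM88 and 7.77 to 8.15 in Mhc7, both above the 7.26 to 7.47 of Canton-S. Among probe sets that passed, 81.8% were higher in Act88FKM88 than in Canton-S and 86.1% higher in Mhc7, against 51.0% and 54.1% with quantile normalization repeated. Where this or another scaling ended a call named here, the value stands beside the result. No marker of hemocytes, neurons and glia, trachea, fat body or other muscle passed in any comparison. Median differences from Canton-S still reached 0.83 for fat body in Mhc7 (3 of 4 positive) and 0.96 for other muscle in Act88FKM88 (5 of 5). Equal tissue content was therefore not shown. The flight muscle marker Mf, named after its values were seen, passed as higher in Mhc7 (1.22 ± 0.25, limma adjusted p = 0.0264). That call was not tried under other scalings.

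The 3 general chaperones and the 3 Hsp60 paralogues fell into separate ranges of signal. Trap1, Hsc70-5 and Hsp60A lay above the array median in all 9 arrays. Hsp60B and Hsp60C lay below it in all 9 and Hsp60D in 7. Between genotypes, Trap1 fell in Act88FKM88, while Hsc70-5 and Hsp60A rose in Mhc7 on the deposited scale. The 3 paralogues gave no call. Because RNA came from whole dissected muscle, fewer cells of a type and less RNA per cell cannot be told apart.

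**Figure D1:**
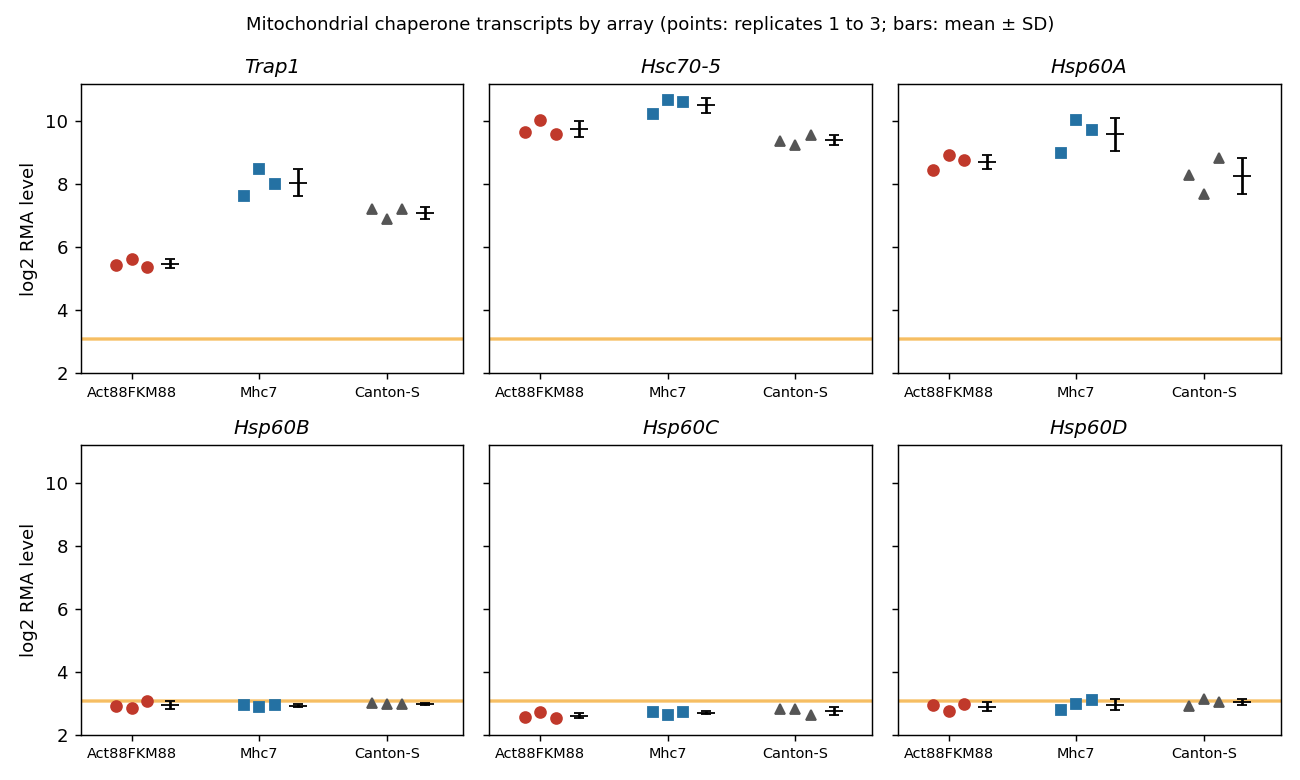
Log2 RMA level of each mitochondrial chaperone gene (y axis) in Act88FKM88, Mhc7 and Canton-S flight muscle (x axis); points are the 3 arrays of a genotype in replicate order, the bar beside them is mean ± SD, and the orange band spans the array medians, 3.05 to 3.12. Trap1 lies between 5.39 and 5.64 in Act88FKM88, below all other arrays, and the 3 Hsp60 paralogues stay near or below the band.

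Setting Act88FKM88 against Canton-S asks which transcripts differ where flight muscle is made without Act88F. Trap1 was 5.43, 5.64 and 5.39 in Act88FKM88, against 7.21, 6.89 and 7.21 in Canton-S. The ranges were well apart, with the highest mutant array more than 1 log2 unit below the lowest wild-type array. Trap1 fell by 1.61 ± 0.20 on the log2 scale (SE, n = 3 per genotype; limma adjusted p = 0.00413), a 3.06-fold decrease with a 95% interval from -2.06 to -1.17. It kept its call in every alternative fit, between -2.01 and -1.56, and its value was -2.01 with quantile normalization repeated. Trap1 was the 1 member of 6 that passed; across all probe sets 0.330% passed as lower and 1.48% as higher, 1.81% in all.

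Hsc70-5 and Hsp60A did not pass in Act88FKM88. Hsc70-5 was 9.65, 10.06 and 9.61 in Act88FKM88, against 9.37, 9.25 and 9.57 in Canton-S. All mutant arrays were above the wild-type ones, with 1 array of each genotype almost level, and the difference was 0.38 ± 0.16 (SE, n = 3 per genotype; limma adjusted p = 0.319; interval 0.02 to 0.74). With quantile normalization repeated it was -0.11. Hsp60A, the general chaperonin, was 8.46, 8.92 and 8.77 in Act88FKM88, against 8.30, 7.69 and 8.83 in Canton-S. These ranges overlapped, and the difference was 0.44 ± 0.32 (adjusted p = 0.593; interval -0.28 to 1.15). All mutant arrays lay below all wild-type arrays for 1 member (Trap1) and above them for 1 (Hsc70-5), as for 10.0% and 9.75% of all probe sets, 19.8% together.

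Setting Mhc7 against Canton-S asks this of flight muscle that lacks myosin heavy chain. Hsc70-5 was 10.23, 10.68 and 10.61 in Mhc7, against 9.37, 9.25 and 9.57 in Canton-S. It rose by 1.11 ± 0.16 (SE, n = 3 per genotype; limma adjusted p = 0.00433), or 2.16-fold, with an interval from 0.75 to 1.47. The call was kept when any single array was left out, with differences of 1.03 to 1.25. It was lost with quantile normalization repeated (0.36, adjusted p = 0.227), with intensity trends removed by cyclic loess (0.59, adjusted p = 0.0528) and with arrays centred on the cytosolic ribosomal protein genes (0.88, adjusted p = 0.0111), so the rise past 2-fold holds on the deposited scale.

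Hsp60A was 9.01, 10.03 and 9.73 in Mhc7, against 8.30, 7.69 and 8.83 in Canton-S. Every Mhc7 array was above every Canton-S array, and each genotype spread over about 1 log2 unit. Hsp60A rose by 1.31 ± 0.32 (limma adjusted p = 0.0498), or 2.49-fold, with an interval from 0.60 to 2.03. The call was lost without Mhc7 2 (1.10, adjusted p = 0.165), Mhc7 3 (1.24, 0.169), Canton-S 1 (1.33, 0.137) or Canton-S 2 (1.02, 0.138), and with quantile normalization repeated (0.59, 0.329) or cyclic loess (0.76, 0.241).

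Trap1 was 7.63, 8.49 and 8.01 in Mhc7, against 7.21, 6.89 and 7.21 in Canton-S. All Mhc7 arrays were above all Canton-S arrays, the opposite side from Act88FKM88. The difference of 0.95 ± 0.20 (interval 0.50 to 1.39; limma adjusted p = 0.0264) was 1.93-fold and so stopped short of the fold required. It passed without Mhc7 1 (1.15) or Canton-S 3 (1.00), and was 0.33 with quantile normalization repeated.

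In Mhc7, 2 of the 6 members therefore rose and none fell, against 2.40% of all probe sets that passed as higher and 0.389% as lower, 2.79% in all. The ranges did not overlap for 3 members above Canton-S (Trap1, Hsc70-5 and Hsp60A) and 1 below (Hsp60B), where 11.8% of all probe sets lay wholly above and 10.3% wholly below, 22.1% together. The median log2 difference of the members was 0.45 in Mhc7, against -0.01 over all probe sets. In Act88FKM88 it was -0.08, against -0.03 over all probe sets. The Mhc7 median lies in a gap and describes no member. Trap1, Hsc70-5 and Hsp60A differed by 0.95 to 1.31 and the Hsp60 paralogues by -0.08 to -0.05.

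**Figure D2:**
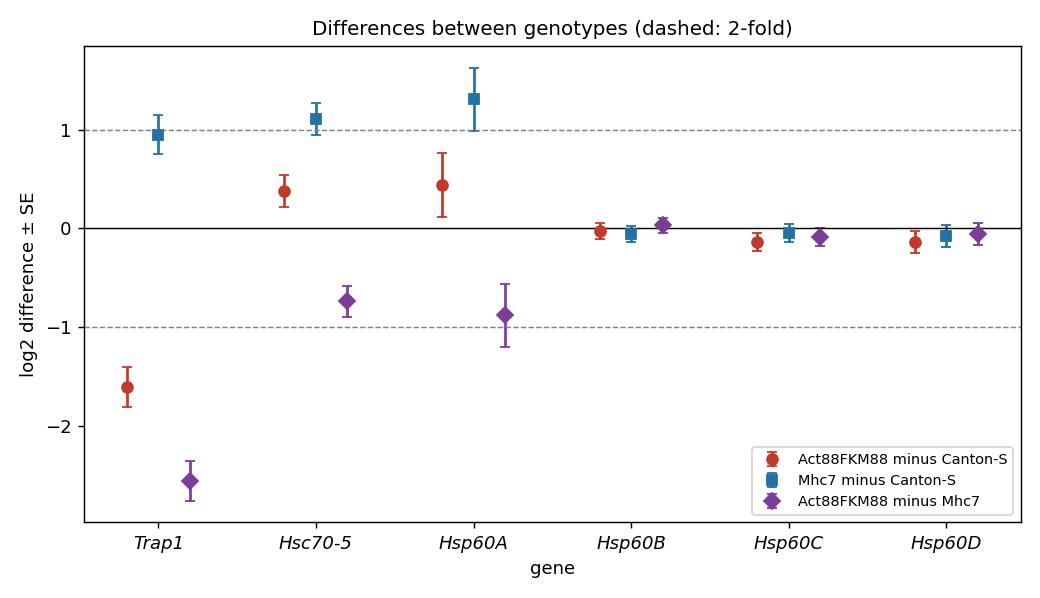
Log2 difference ± SE (y axis, n = 3 arrays per genotype) of each mitochondrial chaperone (x axis) in the 3 comparisons, with dashed lines at 2-fold. Trap1 lies at -1.61 in Act88FKM88 and 0.95 in Mhc7 against Canton-S, and at -2.56 between the mutants; the comparisons with Canton-S share its 3 arrays.

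The direct comparison of Act88FKM88 with Mhc7 tests whether the mutants differ from each other. Trap1 was 5.43, 5.64 and 5.39 in Act88FKM88, against 7.63, 8.49 and 8.01 in Mhc7. The difference of -2.56 ± 0.20 (SE, n = 3 per genotype; limma adjusted p = 0.000242) is 5.90-fold. It passed under every alternative, between -2.77 and -2.33. In this comparison 1.03% of all probe sets passed as lower and 0.757% as higher, 1.79% in all, and Trap1 was the 1 member that passed. Hsc70-5 was lower in all Act88FKM88 arrays than in all Mhc7 arrays, with a difference of -0.74 ± 0.16 (adjusted p = 0.05), 1.67-fold. Hsp60A had a difference of -0.88 ± 0.32 (adjusted p = 0.255), 1.84-fold. Ranges did not overlap for these 3 members, all lower in Act88FKM88, as for 10.1% of all probe sets, while 8.07% lay wholly higher (18.2% together).

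None of the Hsp60 paralogues passed in any of the 3 comparisons. Hsp60B was 2.92, 2.84 and 3.08 in Act88FKM88 and 2.94, 2.87 and 2.96 in Mhc7, against 3.00, 2.97 and 2.98 in Canton-S. Hsp60C was 2.57, 2.71 and 2.54 in Act88FKM88 and 2.73, 2.64 and 2.72 in Mhc7, against 2.82, 2.82 and 2.62 in Canton-S. Hsp60D was 2.96, 2.76 and 2.99 in Act88FKM88 and 2.78, 2.99 and 3.11 in Mhc7, against 2.93, 3.14 and 3.05 in Canton-S. All these values lay in the range of the testis markers, and the ranges overlapped in every comparison except Hsp60B in Mhc7, whose highest array was just under the lowest Canton-S array.

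Against Canton-S, the paralogue differences were -0.03 ± 0.08 for Hsp60B, -0.14 ± 0.09 for Hsp60C and -0.14 ± 0.11 for Hsp60D in Act88FKM88 (limma adjusted p = 0.913, 0.517 and 0.640). In Mhc7 they were -0.06 ± 0.08, -0.05 ± 0.09 and -0.08 ± 0.11 (adjusted p = 0.804, 0.843 and 0.808). The widest of these 6 intervals ran from -0.38 to 0.11. At signals near or below the array median, background limits what a difference can show, so a change in such transcripts was not detectable here rather than absent. The probe sets of Hsp60A, Hsp60C and Hsp60D are of the kind that can match more than 1 transcript (suffix s_at), and whether paralogues share signal was not tested. A further probe set names both Hsp60B and the transporter gene Ncc69 and so stands for neither. It read 5.65, 7.02 and 5.59 in Act88FKM88 and 5.59, 4.97 and 4.82 in Mhc7, against 6.53, 5.83 and 5.44 in Canton-S, and did not pass.

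The change of the general chaperonin relative to each paralogue was measured as the Hsp60A value minus the paralogue value within an array. Because the paralogues read near or below the array median, this gap carries little beyond the difference in Hsp60A itself, which was 1.31 in Mhc7. It was wider in Mhc7 than in Canton-S by 1.37 for Hsp60B, 1.37 for Hsp60C and 1.39 for Hsp60D (two-sided exact permutation p = 0.1 for each, 0.18 adjusted over the 9 tests). With quantile normalization repeated these changes were 0.61, 0.61 and 0.63. Act88FKM88 had a gap wider than Canton-S by 0.47, 0.58 and 0.58 (exact permutation p = 0.3, 0.3 and 0.2), or -0.01, 0.11 and 0.10 with quantile normalization repeated. Between Act88FKM88 and Mhc7 the changes were -0.90, -0.79 and -0.82 (exact permutation p = 0.2, 0.1 and 0.1). With 3 against 3 arrays no p under 0.1 is possible, so this test cannot show that the general form and the paralogues moved differently.

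The partners that work with these chaperones were taken as a list of 6 measured genes, and none passed in Act88FKM88 while 2 rose and none fell in Mhc7. Over all probe sets 1.48% passed as higher in Act88FKM88 and 2.40% in Mhc7. These shares also stand beside the later list counts against Canton-S. CG11267 encodes the Hsp10 cap of the Hsp60 barrel. It was 7.56, 8.05 and 8.13 in Act88FKM88 and 8.41, 9.31 and 8.78 in Mhc7, against 6.65, 7.03 and 7.59 in Canton-S. CG11267 rose in Mhc7 by 1.74 ± 0.28 (limma adjusted p = 0.00806), and its call was kept in all alternative fits, between 1.13 and 1.99. Its difference in Act88FKM88, 0.83 ± 0.28, did not pass (adjusted p = 0.201).

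Hsc20, a co-chaperone of the mitochondrial Hsp70 in iron-sulfur cluster assembly, was 4.74, 4.75 and 5.33 in Act88FKM88 and 5.63, 6.10 and 6.07 in Mhc7, against 5.08, 4.67 and 5.01 in Canton-S. It rose in Mhc7 by 1.01 ± 0.19 (adjusted p = 0.0184), just past 2-fold. The call was lost in 8 of 21 alternatives, with values of 0.77 to 0.99: without Mhc7 2, Mhc7 3 or Canton-S 2, without Canton-S 2 and Mhc7 2 together, with array weights, and under all 3 other scalings (quantile, cyclic loess and ribosomal protein centring). A second Hsp10-family gene, CG9920, named here after its values were seen, did not pass in any comparison. It read 2.53 to 2.67, below the array medians, where a change would be hard to see.

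Other genes that keep mitochondrial proteins in order were counted in the same way. Of 9 mitochondrial proteases, AAA proteins and prohibitins, none passed in Act88FKM88 and 2 rose in Mhc7 (median log2 difference 0.22 and 0.55). Afg3l2, a subunit of the inner-membrane m-AAA protease, was 9.35, 9.74 and 9.26 in Act88FKM88 and 10.44, 10.67 and 10.72 in Mhc7, against 8.87, 8.88 and 9.03 in Canton-S. Each genotype held its own range, and the rise in Mhc7 was 1.68 ± 0.13 (adjusted p = 0.000453), or 0.95 with quantile normalization repeated, without a call. Lon, the protease of the matrix, was 4.84, 5.48 and 5.30 in Act88FKM88 and 5.65, 6.60 and 6.50 in Mhc7, against 4.86, 4.77 and 4.86 in Canton-S. It rose in Mhc7 by 1.42 ± 0.25 (adjusted p = 0.0108), a call lost only without Canton-S 2 and Mhc7 2 together (1.22, adjusted p = 0.121).

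Of 6 genes of mitochondrial quality control, fission and fusion, none passed in either mutant. The kinase gene Pink1 differed by 0.71 ± 0.10 in Act88FKM88 and 0.86 ± 0.10 in Mhc7 (limma adjusted p = 0.00621 and 0.00184), under 2-fold in both, and by 0.33 and 0.19 with quantile normalization repeated (adjusted p = 0.377 and 0.623). The mitofusin gene Marf differed by 0.64 ± 0.11 and 0.62 ± 0.11 (adjusted p = 0.0146 and 0.0109), and by 0.14 and -0.14 with quantile normalization repeated (adjusted p = 0.641 and 0.606). Of 7 genes of mitochondrial genome maintenance and biogenesis, 1 rose in Mhc7, TFAM, which packages mitochondrial DNA (1.27 ± 0.14, adjusted p = 0.00167; 0.61 with quantile normalization repeated and 0.66 with cyclic loess, both without a call), and none passed in Act88FKM88.

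Chaperones of the same families outside mitochondria gave a scale for the members. Gp93, the Hsp90 of the endoplasmic reticulum, read 6.23, 6.34 and 6.27 in Act88FKM88 and 6.50, 6.39 and 6.08 in Mhc7, against 6.27, 6.26 and 6.34 in Canton-S. No genotype stood apart for this relative of Trap1. It was the 1 measured gene of the Hsp90 list: Hsp83, also on that list, had no probe set naming it alone. Of 4 Hsc70 genes outside mitochondria, none passed in Act88FKM88 and 1 rose in Mhc7. This was Hsc70-4, the main cytosolic form, with 9.39, 9.71 and 8.90 in Act88FKM88 and 10.62, 11.06 and 10.95 in Mhc7, against 9.36, 9.50 and 9.63 in Canton-S. It rose in Mhc7 by 1.38 ± 0.20 (limma adjusted p = 0.00415), or 0.71 with quantile normalization repeated and 0.86 with cyclic loess, both without a call.

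Between the mutants, 5 genes of these lists passed, all lower in Act88FKM88 than in Mhc7. They were 2 of 4 Hsc70 genes, 2 of 9 proteases, AAA proteins and prohibitins, and 1 of 7 genes of genome maintenance and biogenesis. Over all probe sets 1.03% passed as lower and 0.757% as higher. Hsc70-4 differed by -1.54 ± 0.20, Afg3l2 by -1.16 ± 0.13, TFAM by -1.05 ± 0.14, Lon by -1.05 ± 0.25 and Hsc70-3, the Hsp70 of the endoplasmic reticulum, by -1.01 ± 0.14 (limma adjusted p = 0.00545, 0.00335, 0.00628, 0.0668 and 0.00877). Hsc70-3 read 6.71, 7.07 and 6.74 in Act88FKM88 and 7.66, 8.10 and 7.80 in Mhc7, against 7.26, 7.57 and 7.41 in Canton-S. It therefore lay on both sides of Canton-S, as Trap1 did, with a smaller spread between genotypes. Neither of its differences from Canton-S passed: -0.57 in Act88FKM88 and 0.44 in Mhc7 (limma adjusted p = 0.0779 and 0.149). Hsc70-4 alone of these 5 passed in every alternative. With quantile normalization repeated the other 4 were under 2-fold, at -0.91 for Afg3l2, -0.79 for TFAM, -0.97 for Lon and -0.79 for Hsc70-3. With cyclic loess TFAM (-0.85), Lon (-0.98) and Hsc70-3 (-0.80) were under 2-fold too. Among fits without 1 array, the Lon call ended in all but those without Act88FKM88 2 or Mhc7 1 (adjusted p at most 0.238), the Hsc70-3 call without Act88FKM88 1 (-0.94), Act88FKM88 3 (-0.96) or Mhc7 2 (-0.89), and the TFAM call without Act88FKM88 3 (-0.95). Without Canton-S 2 and Mhc7 2 together, Lon (-0.87) and Hsc70-3 (-0.89) lost theirs. Lon also lost its call with an adjusted p under 0.05 required and in a fit to the 6 arrays compared.

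**Figure D3:**
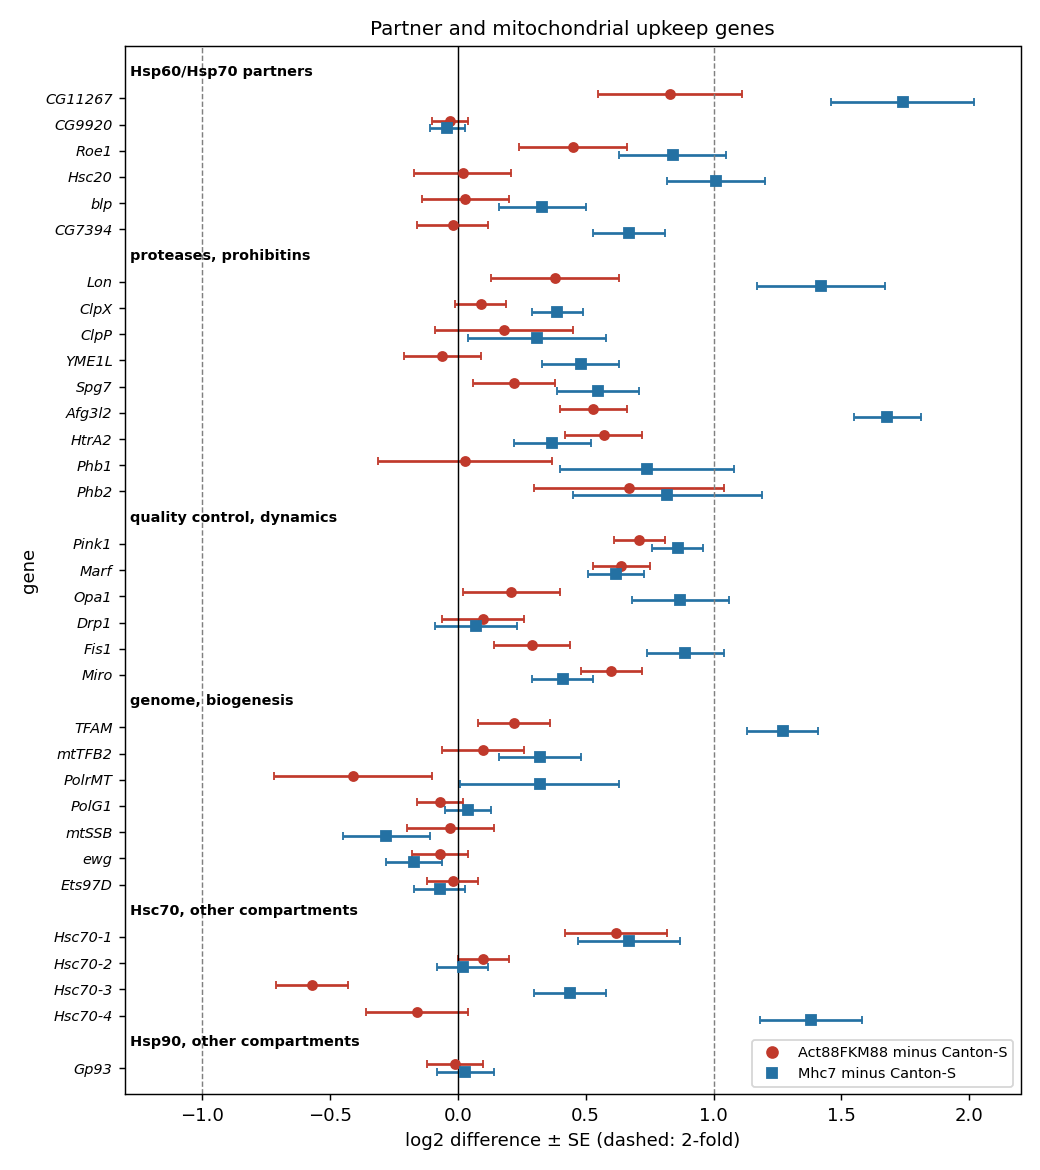
Log2 difference ± SE (x axis, n = 3 arrays per genotype) of each measured gene of the partner and related lists (y axis) in Act88FKM88 and in Mhc7, both against the same 3 Canton-S arrays; dashed lines mark 2-fold. In Mhc7, CG11267 (1.74), Afg3l2 (1.68), Lon (1.42), Hsc70-4 (1.38), TFAM (1.27) and Hsc20 (1.01) lie past 2-fold, and no gene of these lists does in Act88FKM88.

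The genes whose pattern over the 9 arrays was most like that of Trap1 were found as the smallest root mean square difference between profiles centred on their own mean. They were Mal-B2, a maltase gene (0.21), Acat2, an acetyl-CoA acetyltransferase gene (0.22), and CG34015 (0.25). Mal-B2 read 4.76, 5.41 and 5.43 in Act88FKM88 and 7.25, 7.94 and 7.72 in Mhc7, against 6.55, 6.66 and 6.81 in Canton-S. Acat2 read 4.15, 4.42 and 4.44 in Act88FKM88 and 6.76, 6.98 and 6.76 in Mhc7, against 5.80, 5.74 and 6.34 in Canton-S. All 3 genes were lowest in Act88FKM88, highest in Mhc7 and between them in Canton-S. None of the 3 is on a list used here.

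**Figure D4:**
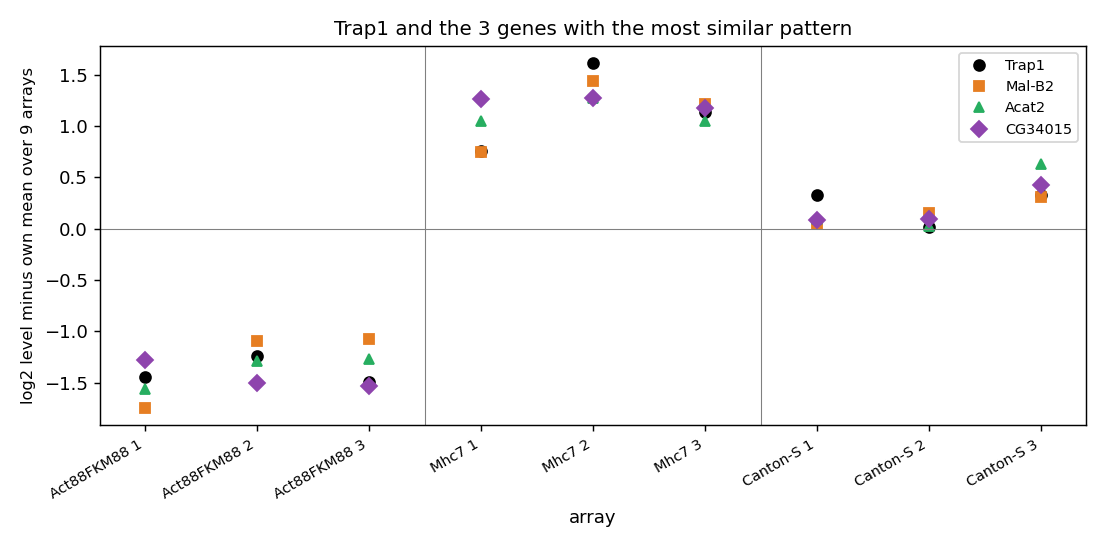
Log2 level minus the gene's own mean over 9 arrays (y axis) for Trap1 and the 3 genes nearest to its pattern, by array (x axis). All 4 genes are below their mean in the 3 Act88FKM88 arrays and furthest above it in the 3 Mhc7 arrays; they were chosen for this likeness, so it carries no test.

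The same measure placed other genes beside the remaining general chaperones. Nearest to Hsc70-5 were GstO2, a glutathione S-transferase gene (0.09), mRpL28, which encodes a protein of the mitochondrial ribosome (0.10), and Ide, a metalloprotease gene (0.10). Nearest to Hsp60A were elm (0.17), GatB, which encodes a subunit of a mitochondrial amidotransferase (0.19), and CG8004 (0.19). For example, mRpL28 read 9.95, 10.27 and 9.76 in Act88FKM88 and 10.50, 10.81 and 10.79 in Mhc7, against 9.34, 9.50 and 9.79 in Canton-S.

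The genes next to Trap1 on its chromosome, in the order of the Release 6 assembly, were examined after its values were seen. Among the 3 protein-coding genes on either side, CG15233, Vha16-1, Bap170, Fmo-2 and Debcl were measured, by 6 probe sets. None passed in any of the 3 comparisons. Vha16-1, a proton pump subunit gene that neighbours Trap1 on one side, read 11.11, 11.32 and 10.64 in Act88FKM88 and 10.97, 11.05 and 11.13 in Mhc7, against 10.35, 10.91 and 10.45 in Canton-S. CG15233, Bap170 and Fmo-2 lay close to the array median, where a fall would be hard to see. Debcl read 3.46, 3.58 and 3.63 in Act88FKM88 and 3.27, 3.16 and 3.32 in Mhc7, against 3.97, 4.13 and 3.22 in Canton-S.

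Markers of fat body varied between arrays of 1 genotype and shared their extreme arrays with Hsp60A and Hsc70-5. Of the 4 measured markers of this tissue (Lsp2, Fbp1, Fbp2 and apolpp), none was near the array median, and single values ran from 4.40 to 9.36. Their mean level was 6.50, 6.96 and 6.42 in Act88FKM88 and 5.92, 8.46 and 6.67 in Mhc7, against 6.34, 5.15 and 7.62 in Canton-S. Mhc7 2 was the highest array for the markers, Hsp60A (10.03) and Hsc70-5 (10.68). Canton-S 2 was the lowest for the markers, Hsp60A (7.69) and Hsc70-5 (9.25). Trap1 too was highest in Mhc7 2 (8.49), and Canton-S 2 (6.89) was its lowest wild-type array. Within Canton-S and within Mhc7, the arrays ranked alike for the markers, Hsp60A and Hsc70-5. In Act88FKM88, Hsc70-5 kept the order of the markers, while Hsp60A shared only their highest array. Across genotypes the match was looser: Mhc7 1 had the second lowest marker mean and the third highest Hsp60A value. These extremes were not particular to fat body. Mhc7 2 was also highest and Canton-S 2 lowest for the mean of the partner list (7.20 and 6.16). The same held for the proteases, AAA proteins and prohibitins (8.09 and 6.87) and for genome maintenance and biogenesis (4.49 and 4.03). Trachea markers were highest in Mhc7 2 (7.87) but lowest in Mhc7 1 (5.78), and hemocyte markers shared neither extreme. Mhc7 2 and Canton-S 2 were left out together in an alternative chosen after the data were seen. The difference in Mhc7 was then 0.80 for Hsp60A (limma adjusted p = 0.289) and 0.95 for Hsc70-5 (0.0698), so that 0 of 6 members passed. The fall of Trap1 in Act88FKM88 was -1.72 (adjusted p = 0.00387) in that fit. Canton-S 2 also had the largest 3′ to 5′ difference of the GAPDH control, 2.55 against 1.68 to 2.13 in the other arrays. The lowest values belonged to Mhc7 3 (1.68) and Mhc7 2 (1.78), while Mhc7 1 (2.06) lay between Canton-S 3 (2.03) and Canton-S 1 (2.08). The part of fat body RNA and of RNA quality in the Mhc7 results was not tested.

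**Figure D5:**
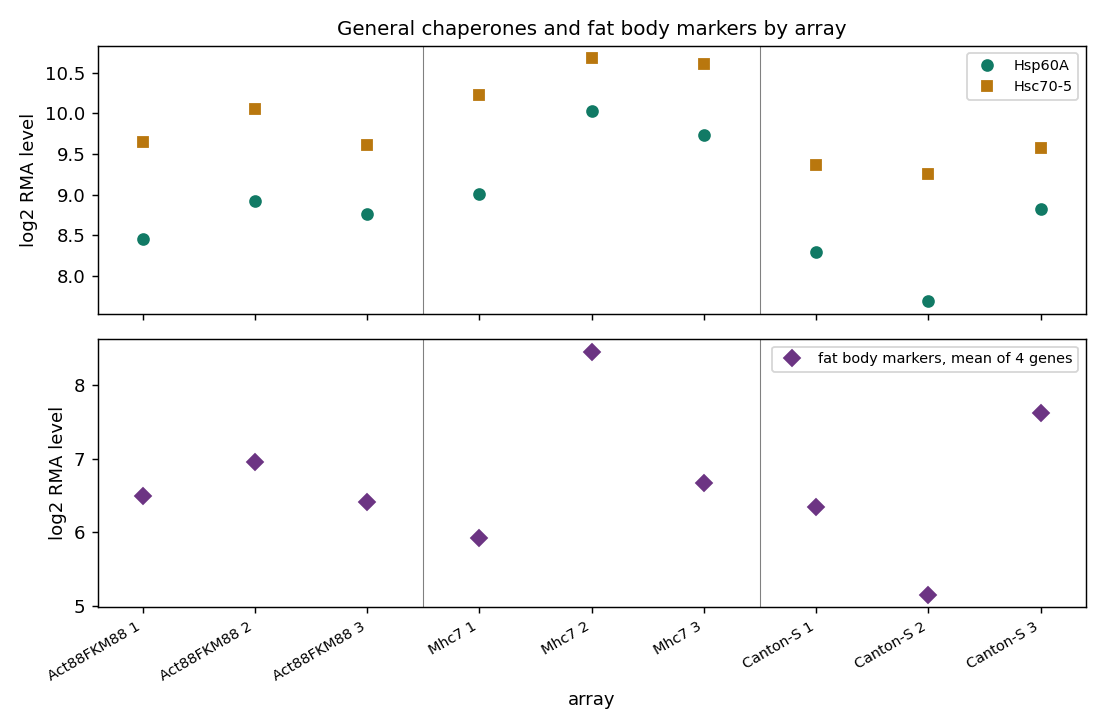
Log2 RMA level (y axes) by array (x axis) of Hsp60A and Hsc70-5 in the upper panel and of the mean of 4 fat body markers in the lower panel. Mhc7 2 is highest for Hsp60A (10.03), Hsc70-5 (10.68) and the markers (8.46), and Canton-S 2 lowest for Hsp60A (7.69), Hsc70-5 (9.25) and the markers (5.15). Mhc7 1 is the lowest Mhc7 array for Hsp60A (9.01), Hsc70-5 (10.23) and the markers (5.92).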

How the data were processed

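RNA from flight muscle was hybridized to 9 Affymetrix GeneChip Drosophila Genome 2.0 arrays. The authors deposited 1 log2 value per probe set and array, made by RMA per the submitters' processing notes; the sources used here do not say whether this was done jointly for the 9 arrays, nor give the RMA version. Of 18952 probe sets, 183 controls were left out. The other 18769 were fitted with limma 3.58.1 (R 4.3.3), with a mean per genotype and no filter on level, and tested two-sided. The false discovery rate and fold are those the study states for SAM, which was run as an alternative. Genes were named through the platform annotation, from probe sets naming 1 gene (13647), by the highest mean where a gene had several. Named are all members, list genes that passed or else the 2 with the smallest p, and the 3 genes nearest in pattern to each general chaperone. Genes chosen otherwise are said to be. Members and lists were chosen with earlier results of these data known. The fit was tested on simulated data. The precision is limited by the number of arrays. No sequences of the members were used here.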

Additional observations from a re-analysis of the deposited data

Results flagged for a closer look

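Trap1 drew attention because the 2 mutants differed from each other in the direct test. Every Act88FKM88 array lay below every Canton-S array and every Mhc7 array above, and the direct test between the mutants gave a log2 difference of -2.56 ± 0.20 (SE, n = 3 per genotype; limma adjusted p = 0.000242). No other member passed that test. Against Canton-S, the difference of Trap1 in Mhc7 (0.95) did not pass. It was 0.33 with quantile normalization repeated and 0.42 with cyclic loess.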

How the results depend on the processing

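Every call of Trap1 in Act88FKM88 held in every alternative, and 1 member passed in Act88FKM88 against both Canton-S and Mhc7 throughout. In Mhc7 against Canton-S, the 2 members that passed became 0 with quantile normalization repeated, 0 with cyclic loess, 1 with centring on cytosolic ribosomal protein genes and 0 without Canton-S 2 and Mhc7 2 together (chosen after seeing the data), and 1 to 3 when single arrays were left out. The cause was not tested. Centring on ribosomal protein genes moved the median of all genes by -0.30 in Act88FKM88 and -0.24 in Mhc7 against Canton-S. With quantile normalization repeated, the difference from Canton-S turned to -0.11 for Hsc70-5 and 0.01 for Hsp60B in Act88FKM88 and to -0.14 for Marf in Mhc7, and the change of the Hsp60A to Hsp60B gap in Act88FKM88 to -0.01. Other signs that turned belong to paralogues. For Hsp60B the difference of Act88FKM88 from Canton-S was 0.02 with cyclic loess and ran from -0.10 to 0.02 (without Act88FKM88 2) when single arrays were left out, and that from Mhc7 was -0.03 with ribosomal centring and ran from -0.04 (without Act88FKM88 3) to 0.08. For Hsp60D the difference between the mutants ran from -0.15 to 0.02 (0.01 without Act88FKM88 2, 0.02 without Mhc7 3) and that of Mhc7 from Canton-S from -0.16 to 0.01 (without Mhc7 1), and for Hsp60C it was 0.01 in Mhc7 without Canton-S 2 and Mhc7 2. Over all probe sets, 340 passed in Act88FKM88 against 142 with SAM, and 524 in Mhc7 against 266 with quantile normalization repeated and 278 with cyclic loess. The Act88FKM88 count was 218 without Canton-S 1, and the 336 between the mutants became 192 without Act88FKM88 1, 213 without Mhc7 3 and 216 without Canton-S 2 and Mhc7 2 together. Same-numbered arrays did not deviate together throughout (correlations -0.32 to 0.43), so the numbers were not taken as pairs. Between the mutants, however, the same-numbered correlations were all positive (0.14, 0.43 and 0.03). With the replicate block the member counts were 1, 2 and 1, as without it. Paralogue signals near or below the array median limit what could be detected.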
